A study of Mus musculus with 17 samples.

Results

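The genes described here are the mouse orthologs of 10 human genes that carry inherited susceptibility to neuroblastoma, or that are mutated or lost in it, measured in tumors of TH-MYCN mice. The members were Bard1, Lmo1, Dusp12, Hsd17b12, Hace1, Casz1, Camta1, Chd5, Nf1 and Arid1a, given by name, so the rule uses no measured value. A member was read from probe sets, the groups of short probes that each report 1 transcript signal, annotated to that symbol and to no other. This gave 23 of 34945 probe sets with a single symbol, and each of the 10 genes (of 18193 measured) took its value from the probe set of highest mean.

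The samples were 17 primary neuroblastomas, each on its own Affymetrix mouse array, and all belong to a single group. The hosts were hemizygous transgenic mice on a 129SvJ background, in which the tyrosine hydroxylase promoter drives human MYCN in the neural crest, so every tumor shares the transgene and no sample without it was analysed here. Each tumor is named here by its title in the labels (mad548 and so on), and the labels give no age, sex, weight or batch for any of them. Values are log2 expression values, in which a difference of 1 is a doubling of signal, and they rank a gene between tumors but do not compare the amount of RNA of different genes. Mutations and copy number of the members were not measured. The labels name no repeat array of a tumor, and each p-value below measures the spread between these 17 tumors, whose number limits the precision.

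Array medians lay between 6.28 and 6.51 log2 units, and mad562 stood apart with the lowest median correlation with the other arrays, 0.98. Of 16 measured markers of sympathetic neuroblasts and chromaffin cells, 13 were in the highest quartile of genes in every tumor, as were 15 of 17 proliferation genes. The mean of the skeletal muscle markers was 12.97 in mad553, with 11.16 for mad550 and 10.46 for mad549, and its median was 6.14, and liver markers averaged 9.67 in mad562 against a median of 5.21. In such bulk samples, fewer cells of a type and less RNA per cell cannot be told apart.

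Neuroblastoma arises from the sympathoadrenal lineage of the neural crest. Common variants at BARD1, LMO1, DUSP12, HSD17B12 and HACE1 have been linked to the risk of the disease, and loss of the chromosome arm that carries CASZ1, CAMTA1, CHD5 and ARID1A is a recurrent lesion of human tumors. NF1 restrains Ras signalling, which is often activated at relapse, and inactivation of ARID1A removes a subunit of the BAF chromatin remodeller. Some members are thus known as oncogenes in this tumor, such as LMO1, and others as suppressors, such as CHD5, CASZ1 and HACE1.

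Promoter sequences are shown for the 3 members to which the results below return most often. Dusp12 was the member called with the mean of proliferation genes, Chd5 the member with most called genes in the values as deposited, and Hsd17b12 the member whose probe sets matched each other most closely. The sequences are the 250 bases before the annotated start of the gene, from RefSeq on GRCm38.p6, written 5′ to 3′ on the strand of the gene. They span chr1:170885541-170885790 on the minus strand for Dusp12, chr4:152338401-152338650 on the plus strand for Chd5 (the first of its windows) and chr2:94157910-94158159 on the minus strand for Hsd17b12. Capitals mark matches, on either strand, to CACGTG (the E-box bound by Myc and Max), CCAAT (the CCAAT box) and TTTGAA (the cell cycle homology region).
Dusp12: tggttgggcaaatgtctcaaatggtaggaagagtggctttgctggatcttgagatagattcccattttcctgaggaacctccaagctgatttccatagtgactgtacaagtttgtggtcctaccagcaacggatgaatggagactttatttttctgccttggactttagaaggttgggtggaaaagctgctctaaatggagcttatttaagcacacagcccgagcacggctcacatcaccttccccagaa
Chd5: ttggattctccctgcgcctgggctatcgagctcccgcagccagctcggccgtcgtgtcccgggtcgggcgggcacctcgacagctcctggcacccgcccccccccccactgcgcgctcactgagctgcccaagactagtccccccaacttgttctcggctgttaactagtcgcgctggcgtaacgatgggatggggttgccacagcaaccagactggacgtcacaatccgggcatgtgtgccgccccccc
Hsd17b12: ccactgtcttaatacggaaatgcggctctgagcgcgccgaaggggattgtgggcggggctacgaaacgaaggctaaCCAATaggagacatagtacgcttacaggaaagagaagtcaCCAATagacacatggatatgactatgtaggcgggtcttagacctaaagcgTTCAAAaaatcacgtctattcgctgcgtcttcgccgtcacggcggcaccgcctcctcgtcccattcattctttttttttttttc
The Hsd17b12 window held 2 CCAAT boxes and 1 match to TTTGAA, while the Dusp12 and Chd5 windows held none of these letters. All 10 members had at least 1 window, 14 in all, and 3 of the 14 held CCAAT, 3 held TTTGAA and 0 held CACGTG. Among 32851 mouse promoter windows of the same length, 33.8% held CCAAT, 16.0% held TTTGAA and 6.02% held CACGTG. These matches describe the letters of the window and no site of binding.

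The members with reported risk variants differed in how much they varied between tumors. Lmo1, a LIM-only cofactor that bridges DNA-binding proteins, ran from 10.82 in mad554 through a median of 11.50 to 12.01 in mad553 (mean 11.43 ± 0.33, SD, n = 17). The highest value was 2.28 times the lowest on the linear scale. Among 1162 genes whose mean lay within 0.5 log2 units of that of Lmo1, 93.7% had a smaller SD, so Lmo1 was one of the more variable genes at its signal level.

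Bard1, the ubiquitin ligase partner of Brca1 in homologous recombination, ran from 5.27 in mad563 through a median of 5.88 to 6.41 in mad564 (5.84 ± 0.29, SD, n = 17), and 71.6% of genes of like signal varied less. Hsd17b12, the ketoacyl-CoA reductase of fatty acid elongation, ran from 10.59 in mad564 through a median of 10.95 to 11.37 in mad548 (10.99 ± 0.24, SD, n = 17). The extremes of Bard1 and Hsd17b12 thus shared a tumor, mad564, which was highest in the first and lowest in the second. Dusp12, an atypical dual specificity phosphatase, ran from 8.85 in mad553 through a median of 9.24 to 9.61 in mad549 (9.28 ± 0.20, SD, n = 17). Hace1, a HECT ubiquitin ligase that targets active Rac1, ran from 7.17 in mad562 through a median of 7.53 to 7.90 in mad559 (7.53 ± 0.21, SD, n = 17). The spread of the last pair was ordinary, with 43.8% and 30.1% of genes of like signal varying less.

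Of the 4 members whose human orthologs lie in the 1p36 region or nearby, Chd5 varied most and Casz1 least of all 10 members. Chd5, a neuronal chromatin remodeller of the NuRD family, ran from 8.07 in mad548 through a median of 8.73 to 9.67 in mad563 (8.75 ± 0.40, SD, n = 17), a 3.03-fold range on the linear scale. After mad563 its highest values were 9.30 in mad558 and 9.14 in mad560, and after mad548 its lowest was 8.23 in mad565. Among genes of like signal 86.9% varied less than Chd5.

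Casz1, a zinc finger transcription factor of neural and cardiac development, ran from 5.99 in mad562 through a median of 6.20 to 6.38 in mad559 (6.19 ± 0.11, SD, n = 17). Only 1.77% of the 1983 genes of like signal varied less. Its 3 dimmer probe sets had SDs of 0.22 to 0.23, so the small spread belongs to the probe set of highest mean. Camta1, a calmodulin-binding transcription activator, ran from 9.58 in mad564 through a median of 9.89 to 10.41 in mad552 (9.91 ± 0.21, SD, n = 17). Arid1a, the DNA-binding subunit of the BAF complex, ran from 11.18 in mad553 through a median of 11.62 to 11.86 in mad560 (11.60 ± 0.20, SD, n = 17). Its values were low in mad553 and mad559, the latter at 11.19, and the next lowest was 11.35 in mad565.

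Nf1 encodes neurofibromin, which speeds the hydrolysis of GTP on Ras. It ran from 6.98 in mad562 through a median of 7.47 to 8.14 in mad563 (7.53 ± 0.27, SD, n = 17), and 50.9% of genes of like signal varied less. The extremes of the members were spread over 10 tumors. The tumor mad562, with the highest liver and macrophage markers, was lowest in 3 members, Hace1, Casz1 and Nf1. With each array centred on its median, the lowest tumor was mad555 for Hace1 and mad554 for Camta1. The highest for Dusp12 was then mad558, and the other extremes stayed in the same tumors. The tumor mad563 was highest in Chd5 and Nf1 and lowest in Bard1. The tumor mad553, with the highest muscle markers, was highest in Lmo1 and lowest in Dusp12 and Arid1a, and the part of the muscle RNA in this was not tested.

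**Figure D1:**
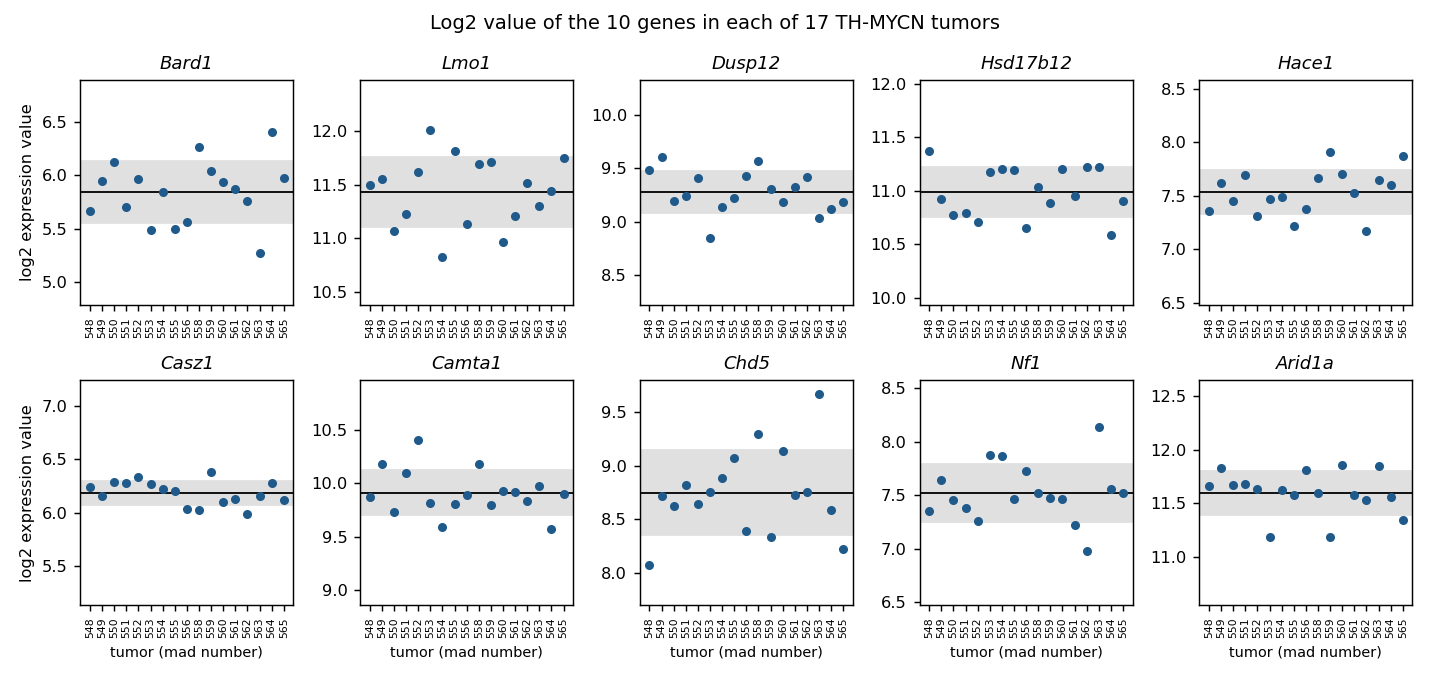
Log2 value (vertical axis, each panel spanning an equal range) of each of the 10 genes in each of the 17 tumors (horizontal axis, by submitters' number). Points are single tumors, the line is the mean and the grey band is the mean ± 1 SD. Chd5 spans 8.07 to 9.67, while Casz1 stays between 5.99 and 6.38.

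Within each array the genes were ranked into quartiles of signal, which describes rank only. In every tumor 3 of the 10 members were in the highest quartile, Lmo1, Hsd17b12 and Arid1a, against 19.8% of all 18193 genes. Camta1 was in the highest quartile in 15 tumors and the next one in 2. Dusp12 and Chd5 stayed in the third quartile in all 17 tumors, and Casz1 in the second in all 17. Hace1 was in the second quartile in 8 tumors and the third in 9, and Nf1 in the second in 9 and the third in 8. Bard1 was in the second in 16 tumors and the lowest in 1. None of the 10 members was in the lowest quartile in every tumor, where 18.4% of all genes were. The count depended on the probe sets used: it was 1 (Lmo1) when every probe set of a gene had to qualify and 5 when the limits came from all probe sets.

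Where a member had several probe sets, they often did not follow each other over the tumors. Both probe sets of Hsd17b12 rose and fell together (r = 0.88, rho = 0.91, n = 17, permutation p = 1e-05 for each, the smallest that 100000 permutations can give). For Camta1 the probe set next in signal had r = 0.64 with the first (permutation p = 0.00499), and the others 0.42 and 0.14 (permutation p = 0.0991 and 0.581). One dimmer probe set of Casz1 had r = 0.48 with the first (permutation p = 0.0458, but p = 0.183 for rho = 0.34). The second probe sets of Hace1 and Arid1a had r of -0.22 and 0.22 with the first (permutation p = 0.392 and 0.390). Both dimmer probe sets of Dusp12 had r between -0.08 and 0.04 with the first, and both of Nf1 between -0.10 and 0.02. Values for Dusp12, Hace1, Casz1, Nf1 and Arid1a are therefore values of 1 probe set, and Bard1, Lmo1 and Chd5 had only 1.

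To ask whether the members vary together, each of them was taken in turn as the covariate of a limma fit over all other genes, and a pair was called when the Benjamini-Hochberg adjusted p over all 18192 genes was under 0.05 in both fits. None of the 45 pairs was called, and the lowest adjusted p of limma was 0.156. As covariates, Bard1, Lmo1, Hsd17b12, Hace1, Casz1 and Camta1 called 0.0% of all genes, and the other members 0.0055% to 1.31%. A count of 0 pairs at these shares does not show that the members vary apart. By permutation 4 pairs had an unadjusted p under 0.05 for r and 2 for rho. The pair of lowest r was Lmo1 and Arid1a (r = -0.64, permutation p = 0.00511, rho = -0.62, permutation p = 0.00971, n = 17). Its r was -0.67 without mad554 and mad560, the tumors farthest from the median of Lmo1, and its adjusted p in limma was 0.508 with Lmo1 as covariate and 0.156 with Arid1a. Lmo1 was highest and Arid1a lowest in mad553, and Arid1a was highest in mad560, where Lmo1 was next to lowest at 10.96.

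The pair of highest r was Dusp12 and Camta1 (r = 0.52, permutation p = 0.0315, rho = 0.46, permutation p = 0.0627, n = 17), with adjusted p in limma of 0.376 and 0.668. It turned to r = -0.23 when probe sets whose names end in _a_at, _s_at or _x_at, among them the first of Dusp12, were left out. Bard1 and Hsd17b12 had r = -0.51 (permutation p = 0.0381, rho = -0.51, permutation p = 0.0371), which was -0.29 without mad563 and mad564. Dusp12 and Nf1 had r = -0.50 (permutation p = 0.0413, rho = -0.42, permutation p = 0.0919). The members did not form a block of genes of shared sign, as the map of pair correlations shows.

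**Figure D2:**
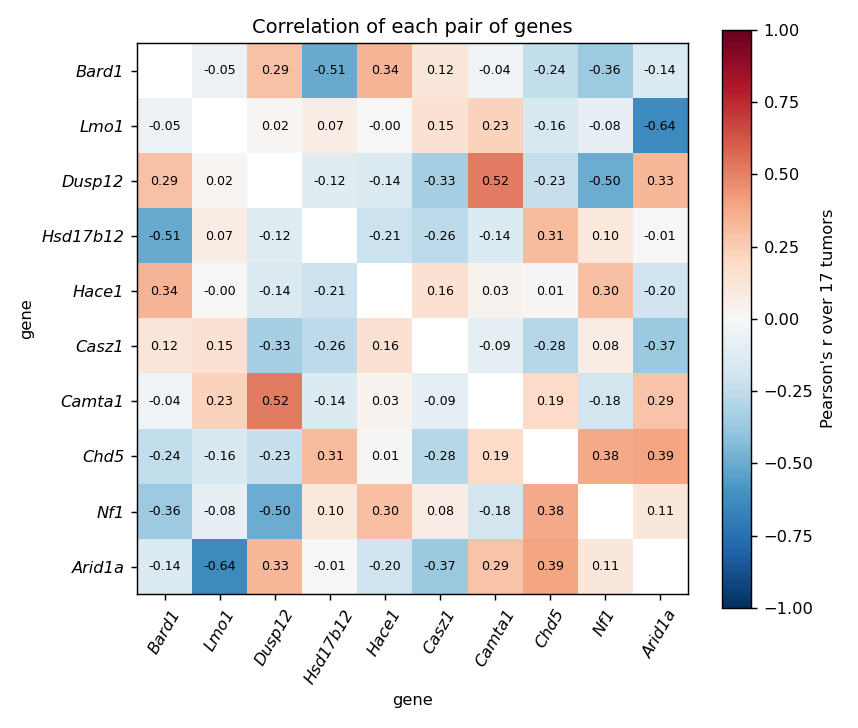
Pearson's r over the 17 tumors for each of the 45 pairs of members, drawn from -1 (blue) to 1 (red), with the value in each cell. The lowest is Lmo1 with Arid1a at -0.64 and the highest is Dusp12 with Camta1 at 0.52.

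Tumors hold other cells and differ in growth, so each member was set against the mean of 9 marker lists. Of 90 relations of a member with a list, 5 had an unadjusted permutation p under 0.05 for r and 8 for rho, and 1 was called by limma after adjustment over all genes. The called relation was that of Dusp12 with 17 proliferation genes, among them Mki67, Top2a and Plk1. Over all genes the proliferation list called 0.721%, and the others 0.512% (sympathetic), 0.5% (skeletal muscle), 2.0% (liver), 0.214% (fat), 4.98% (macrophage), 0.0715% (fibroblast), 0.951% (endothelial) and 0.0% (Schwann).

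Dusp12 rose by 1.20 ± 0.27 log2 units (slope ± SE) for each log2 unit of the proliferation list (r = 0.78, permutation p = 0.00022, rho = 0.64, permutation p = 0.00683, n = 17, adjusted p in limma = 0.046). All 17 proliferation genes had an r above 0 with Dusp12 (median 0.60), and none of them was called singly. The list mean ran from 11.38 in mad553 to 11.87 in mad558, and Dusp12 was lowest in mad553 and next to highest, at 9.56, in mad558. Without mad553 and mad558 r was 0.59. The call was lost in 13 of the 17 fits that left out 1 tumor, with r between 0.67 and 0.81 and adjusted p between 0.040 and 0.255, and it was kept without mad560, mad561, mad562 or mad565. It was also kept with each array centred on its median (r = 0.80, adjusted p in limma = 0.015). With the first principal component removed, r was 0.80 and the adjusted p in limma 0.029. Among genes at or above the median of all genes, the adjusted p in limma was 0.026. Without the 3 tumors of high muscle markers r was 0.59 and the adjusted p 0.354. In that fit the list called 0 genes over the array, and 2 without mad553 alone, against 131 with all tumors. The lost call there is thus not particular to Dusp12. The dimmer probe sets of Dusp12 had r = 0.21 (permutation p = 0.416) and r = -0.02 (permutation p = 0.929) with the list, so the call rests on 1 of 3 probe sets.

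**Figure D3:**
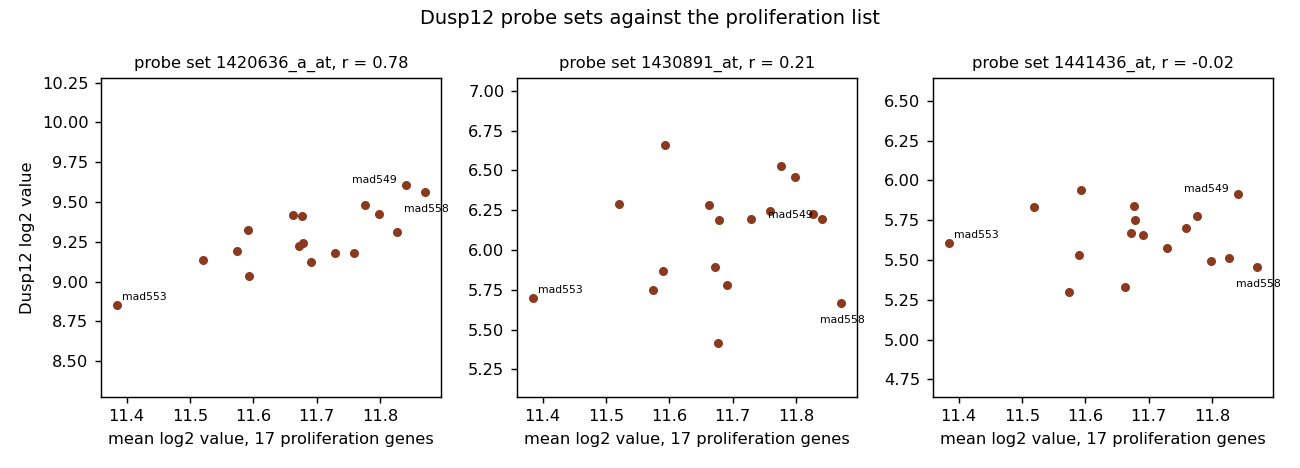
Log2 value of the 3 Dusp12 probe sets (vertical axes, all of 1 width in log2 units) against the mean log2 value of 17 proliferation genes (horizontal axes), 1 point per tumor. The brightest probe set follows the list with r = 0.78, with mad553 at the low end and mad549 and mad558 at the high end, and the others have r = 0.21 and r = -0.02.

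The remaining relations with an unadjusted p under 0.05 for r or rho were not called. At an unadjusted p under 0.05 in limma, the sympathetic list had 2717 of 18177 genes and the macrophage list 2857 of 18181. The liver, Schwann and skeletal muscle lists had 1860 of 18186, 1110 of 18187 and 798 of 18183. A p of this size was thus common over the array with the sympathetic and macrophage lists. Chd5 had r = 0.61 with the sympathetic list (permutation p = 0.00859, rho = 0.56, permutation p = 0.0199, adjusted p in limma = 0.139), and 0.32 without mad560 and mad563, which had the highest list means of 12.20 and 12.21. Leaving out mad548 alone gave r = 0.78 and an adjusted p of 0.034. Hsd17b12 had r = 0.59 with the same list (permutation p = 0.0131, rho = 0.55, permutation p = 0.0239, adjusted p in limma = 0.183). This r was 0.40 with each array centred on its median and 0.68 with the first principal component removed. With centred arrays the sympathetic list called 1 gene over the array in place of 93. With macrophage markers, Chd5 had r = -0.48 (permutation p = 0.0498, adjusted p in limma = 0.258) and Nf1 had r = -0.50 (permutation p = 0.0427, adjusted p in limma = 0.255). Neither held by rank, with permutation p of 0.120 and 0.126 for rho. By rank alone, Camta1 and Arid1a had rho = -0.60 and -0.55 with macrophage markers (permutation p = 0.0136 and 0.0258, r = -0.43 and -0.38), and Arid1a had a negative rho with Schwann cell markers (rho = -0.54, permutation p = 0.0278, r = -0.35).

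Muscle and liver markers stood high in a few tumors, which weigh on r but less on rho. Their r with the members lay between -0.28 and 0.29 and between -0.46 and 0.26. By rank, Hsd17b12 had rho = 0.60 with liver markers (permutation p = 0.0119), and r was 0.26 over all tumors. It was 0.62 without mad559 and mad562, the tumors farthest from the list median. Outside mad559 and mad562 the liver list mean lay only between 5.01 in mad558 and 5.40 in mad563, so this relation is one of dim values. Hsd17b12 also had r = 0.65 with the array medians, and the part of array level in this was not tested. Lmo1 had rho = 0.49 with muscle markers (permutation p = 0.0472), and r was 0.28, or 0.23 without mad550 and mad553. The adjusted p in limma of the 5 relations seen by rank alone was 0.396 or higher.

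**Figure D4:**
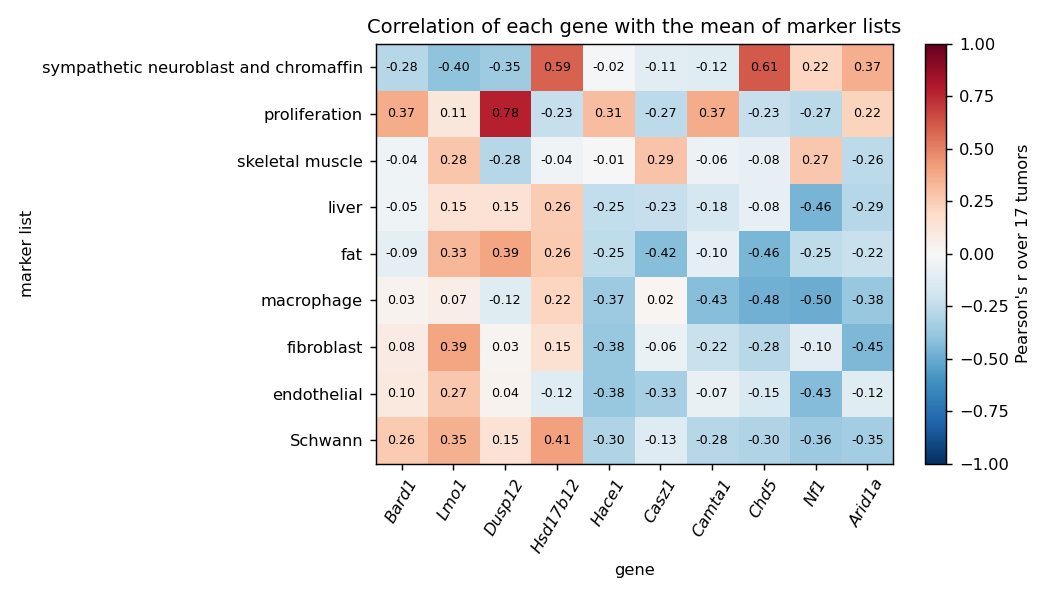
Pearson's r over the 17 tumors of each member (columns) with the mean of each marker list (rows), drawn from -1 (blue) to 1 (red), with the value in each cell. Dusp12 with proliferation is the highest at 0.78, and Nf1 with macrophage markers is the lowest at -0.50.

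Across the whole array, the values as deposited gave most called genes with Chd5. At an adjusted p under 0.05 in limma, 238 of 18192 genes (1.31%) were called with Chd5, 162 rising with it and 76 falling as it rose. The same fit called 7 genes with Arid1a (0.0385%), 2 with Dusp12 (0.011%), 1 with Nf1 (0.0055%) and 0 (0.0%) with each of Bard1, Lmo1, Hsd17b12, Hace1, Casz1 and Camta1. At an unadjusted p under 0.05 the latter had 1267, 1300, 1945, 1541, 780 and 1293 genes, and Chd5 had 2731. These fits were not compared with each other by a test, and Dusp12 had more called genes than Chd5 with centred arrays (216 against 181) and without mad563 (41 against 23).

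The genes of highest r with Chd5 among those whose mean was at or above the median of all genes were Mcf2l, Arhgef2 and Cep170b. Mcf2l, a guanine nucleotide exchange factor, ran from 8.95 in mad548 through a median of 9.72 to 10.80 in mad563 (r = 0.90, rho = 0.73, n = 17, adjusted p in limma = 0.00091). Arhgef2, a microtubule-bound exchange factor, had r = 0.89 (adjusted p in limma = 0.0041), and Cep170b, a relative of the centrosomal protein Cep170, had r = 0.89 (adjusted p in limma = 0.0015). Mcf2l and Chd5 shared the same 4 highest tumors, mad563, mad558, mad555 and mad560, and the same 3 lowest, mad548, mad565 and mad559.

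Other genes called with Chd5 were named after their values were seen. Rising with it were Olfm3 (r = 0.89), Dpysl4 (r = 0.89), the Cdk inhibitor Cdkn1c (r = 0.87) and L1cam, a neural adhesion molecule (r = 0.84). Falling as it rose were Adgra2, an adhesion receptor of endothelial cells (r = -0.90), Ddx39a, an RNA helicase (r = -0.88), Cacybp (r = -0.88), the electron carrier Cycs (r = -0.87) and the serotonin receptor subunit Htr3a (r = -0.82). The tumor mad563 carried much of this count: without it 23 genes were called, and 221 of the 238 lost the call. It had the lowest means of fat and fibroblast markers (7.26 and 8.52) and the highest of sympathetic markers (12.21). The tumor mad548, lowest in Chd5, had the highest mean of fat markers (10.74). The part of such tissue content in the calls was not tested. When each tumor was left out in turn, 14 of the 238 were called every time, among them Mcf2l, Cep170b, Olfm3, Dpysl4, Cdkn1c, L1cam, Adgra2 and Htr3a. None of the 16 sympathetic markers was called with Chd5, and 12 of them had an r above 0.

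**Figure D5:**
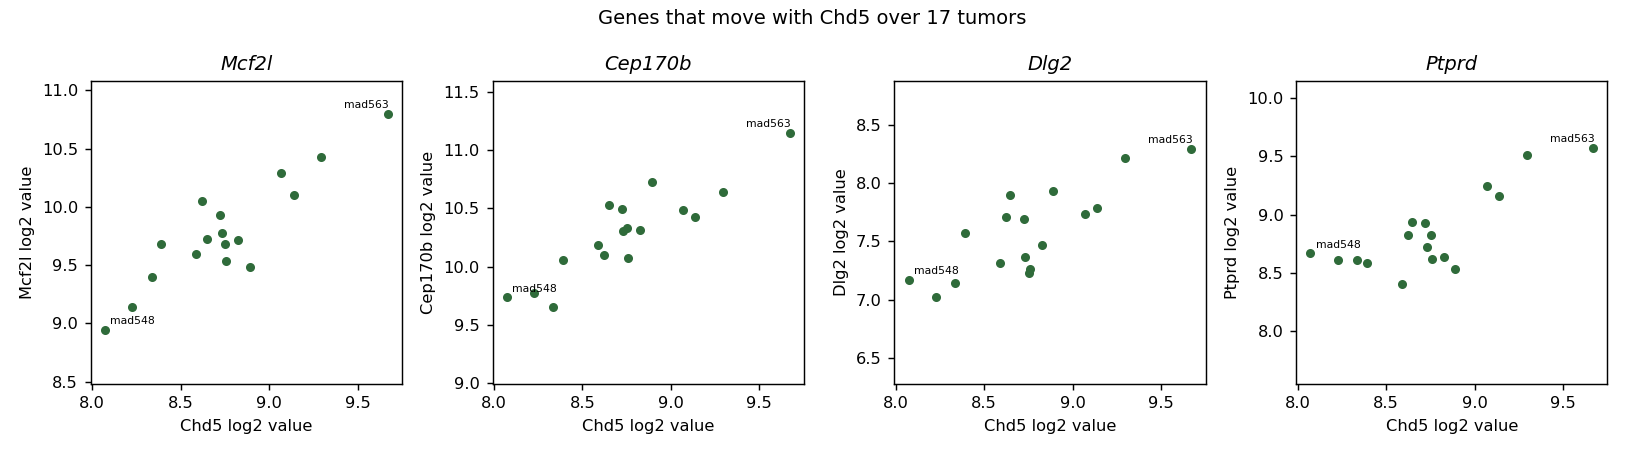
Log2 values of Mcf2l, Cep170b, Dlg2 and Ptprd (vertical axes, all of 1 width in log2 units) against the log2 value of Chd5 (horizontal axes), 1 point per tumor. All 4 are highest in mad563, where Chd5 is highest, and r is 0.90, 0.89, 0.81 and 0.80.

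The 7 genes called with Arid1a included Dnajc6, the auxilin that uncoats clathrin vesicles in neurons. It ran from 7.17 in mad553 through a median of 8.67 to 9.08 in mad560 (r = 0.92, rho = 0.89, n = 17, adjusted p in limma = 0.00048), and Arid1a was lowest and highest in the same tumors. Dnajc6 was called whichever tumor was left out, and the other 6 were not. Lnx1, a ubiquitin ligase that binds Numb, had r = 0.85 (adjusted p in limma = 0.016), and Casd1, a sialic acid acetyltransferase, had r = 0.85 without being called (adjusted p in limma = 0.092). The others, named after their values were seen, were Camk4 (r = 0.87), Hyls1 (r = 0.86), Nhsl1 (r = 0.83), Stambpl1 (r = 0.82) and, falling as Arid1a rose, Plce1 (r = -0.84). Without mad553, 6 of the 7 lost the call.

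Dusp12 was most like Fh1, the fumarase of the citric acid cycle (r = 0.91, rho = 0.82, n = 17, adjusted p in limma = 0.016). Fh1 was lowest, at 11.60, in mad553, the tumor lowest in Dusp12, and lost the call without mad549 or without mad553. Next came Bub1, a spindle checkpoint kinase that is also a member of the proliferation list (r = 0.87, adjusted p in limma = 0.059), and Cnot11, a subunit of the CCR4-NOT deadenylase (r = 0.84, adjusted p in limma = 0.059). The other called gene, Tspan9, a tetraspanin, fell as Dusp12 rose (r = -0.92, adjusted p in limma = 0.00088) whichever tumor was left out, and was highest, at 10.08, in mad553. Neither gene was called without mad549, mad550 and mad553 together, or without probe sets ending in _a_at, _s_at or _x_at, where limma called 0 genes with Dusp12 (1580 and 1716 genes at an unadjusted p under 0.05). Nf1 was most like Bbs12, a chaperonin-like protein of the BBSome assembly (r = 0.88, adjusted p in limma = 0.0495), a call lost in 14 of the 17 fits that left out 1 tumor. Anks1 (r = 0.84) and Sike1 (r = 0.81) followed, each with an adjusted p of 0.202 in limma.

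For the members with no called gene, the genes of highest r are given as a description. For Bard1 they were Dele1 (r = 0.81), Mtrf1l (r = 0.79) and the splicing factor Puf60 (r = 0.78), and for Lmo1 the dynein light chain Dynlrb1 (r = 0.76), Arhgap35 (r = 0.75) and the cytokine receptor Lifr (r = 0.72). For Hsd17b12 they were the SNARE Ykt6 (r = 0.82), the kinase Slk (r = 0.78) and Csnk1g2 (r = 0.78), and for Hace1 the nuclear pore protein Nup155 (r = 0.84), Peli1 (r = 0.81) and Ufd1 (r = 0.78). For Casz1 they were Asb13 (r = 0.78), the receptor Ror2 (r = 0.74) and Tmem184c (r = 0.73), and for Camta1 Ccnjl (r = 0.80), the RNA-binding protein Khdrbs3 (r = 0.79) and Poc1b (r = 0.73). The adjusted p in limma of these 18 genes lay between 0.281 and 0.983. Each was picked for its high r among genes at or above the median of all genes, so its r describes the top of a ranking.

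Members were also set against lists of related genes, taken by complex, pathway, gene family or chromosome region. Over all genes, 0.0% were called with each of Bard1, Lmo1 and Hsd17b12, so a count of 0 in their lists says nothing on the lists. None of 12 measured genes of the Brca1 and Bard1 complex and homologous recombination was called with Bard1 (median r 0.17, against -0.07 over all genes). The highest was the deubiquitinase Brcc3 (r = 0.57, adjusted p in limma = 0.697) and the lowest Abraxas1, the scaffold of the same complex (r = -0.38). None of 15 genes of the LMO and LDB transcription complex was called with Lmo1 (median r 0.12, against -0.08), and they ran from Tal1, a basic helix-loop-helix partner (r = -0.49), to Isl1, a LIM homeodomain factor (r = 0.31). Without mad554 and mad560, r was -0.65 for Tal1 and -0.09 for Isl1. None of 15 fatty acid elongation genes was called with Hsd17b12 (median r 0.23, against 0.16), from the desaturase Scd2 (r = -0.34) to the carboxylase Acaca (r = 0.43).

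Over all genes, 0.011% were called with Dusp12, 0.0055% with Nf1, 0.0385% with Arid1a and 1.31% with Chd5. At these shares a count of 0 in a short list says little on the list. None of 11 phosphatases listed as relatives of Dusp12 was called with it (median r 0.05, against 0.03), from laforin, Epm2a (r = -0.17), to Ssu72 (r = 0.34). None of 17 Ras pathway genes was called with Nf1 (median r 0.06, against 0.09), from the ERK phosphatase Dusp6 (r = -0.51, adjusted p in limma = 0.385) to Ptpn11 (r = 0.38). Without mad562 and mad563, r was -0.10 for Dusp6 and 0.55 for Ptpn11. None of 21 subunits of BAF and related complexes, among them Arid2, Pbrm1 and Brd9, was called with Arid1a (median r 0.25, against 0.12). They ran from Actl6a (r = -0.32) to Smarcd1 (r = 0.53, adjusted p in limma = 0.289, rho = 0.22 with permutation p = 0.391). Without mad553 and mad559, r was -0.20 for Actl6a and 0.24 for Smarcd1. None of 13 genes of the Chd family and NuRD complex was called with Chd5 (median r -0.14, against 0.04), from Mbd2 (r = -0.56, adjusted p in limma = 0.211) to Chd3 (r = 0.42).

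In 19 other genes of the human 1p36 region, none was called with Casz1, Camta1, Chd5 or Arid1a. Over all genes the shares called were 0.0%, 0.0%, 1.31% and 0.0385%. The genes named next were picked as the extremes of the list, and their permutation p does not allow for that choice. The lowest with Casz1 was Park7, the redox protein DJ-1 (r = -0.70, permutation p = 0.00197, adjusted p in limma = 0.983), and the lowest with Camta1 was the vesicle SNARE Vamp3 (r = -0.65, permutation p = 0.00405, adjusted p in limma = 0.536). The highest were Nmnat1 with Casz1 (r = 0.46) and Ajap1 with Camta1 (r = 0.40). Chd5 and Arid1a had the same highest and lowest gene of the list. Dffa, the inhibitor of the apoptotic nuclease, had r = 0.65 with Chd5 (permutation p = 0.00461, adjusted p in limma = 0.153) and 0.63 with Arid1a (permutation p = 0.00706, adjusted p in limma = 0.234). Nmnat1, an enzyme of nuclear NAD synthesis, had r = -0.64 with Chd5 (permutation p = 0.00559, adjusted p in limma = 0.0996) and -0.57 with Arid1a (permutation p = 0.0163, adjusted p in limma = 0.225). By rank, Nmnat1 had rho = -0.51 with Chd5 and -0.42 with Arid1a (permutation p = 0.0387 and 0.0919). For Dffa, rho was 0.68 and 0.66. Leaving out mad548 and mad563 gave r with Chd5 of -0.41 for Nmnat1 and 0.58 for Dffa. With mad553 and mad559 left out, r with Arid1a was -0.32 for Nmnat1 and 0.54 for Dffa. The r of Vamp3 with Camta1 was -0.45 without mad552 and mad564. That of Park7 with Casz1 was -0.70 without mad559 and mad562.

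Set against 17 other neuroblastoma genes, only Chd5 had called partners, 2 of the 17 (1.31% of all genes were called with Chd5). Dlg2, a synaptic scaffold, ran from 7.02 in mad565 through a median of 7.57 to 8.29 in mad563 (r = 0.81, permutation p = 0.0001, rho = 0.74, permutation p = 0.00106, n = 17, adjusted p in limma = 0.013). Ptprd, a receptor tyrosine phosphatase of synapses, ran from 8.40 in mad564 through a median of 8.72 to 9.58 in mad563 (r = 0.80, permutation p = 0.00011, rho = 0.61, permutation p = 0.0115, n = 17, adjusted p in limma = 0.015). The 4 highest tumors in Chd5 were the 4 highest in Ptprd. When mad548 and mad563, the extremes of Chd5, were left out, r was 0.71 for Dlg2 and 0.75 for Ptprd. Both calls were lost without mad563 (adjusted p = 0.104 and 0.138 in limma). Both were also lost when the mean of all probe sets of a gene replaced the one of highest mean, with r = 0.62 for Dlg2 and 0.68 for Ptprd (adjusted p = 0.164 and 0.110 in limma).

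With the other members none of these genes was called (0.0% to 0.0385% of all genes were). The lowest and highest are given as values, and their permutation p does not allow for their being picked as extremes. For Lmo1 they were Nbas (r = -0.67, permutation p = 0.00326, adjusted p in limma = 0.445) and Mlf1 (r = 0.54), for Arid1a Lin28b (r = -0.48) and Nbas (r = 0.64, adjusted p in limma = 0.174), and for Camta1 Rpl7l1 (r = -0.75, permutation p = 0.00062, adjusted p in limma = 0.482) and Ptprd (r = 0.46). For Casz1 they were Ptpn11 (r = -0.44) and the mouse Mycn gene (r = 0.59, permutation p = 0.0121, adjusted p in limma = 0.983), for Nf1 Lin28b (r = -0.16) and Mlf1 (r = 0.62, adjusted p in limma = 0.289), and for Dusp12 Arid1b (r = -0.44) and Tert (r = 0.52). For Bard1 they were Ptpn11 (r = -0.53) and Lin28b (r = 0.26), for Hace1 Ptpn11 (r = -0.37) and Lin28b (r = 0.49), and for Hsd17b12 Cpz (r = -0.50) and Ptpn11 (r = 0.50). The lowest with Chd5 was Lin28b (r = -0.54, adjusted p in limma = 0.215). Without mad549 and mad553, r with Dusp12 was -0.35 for Arid1b and 0.16 for Tert. Lin28b and Cpz were dim, with means of 4.09 and 4.49, where the lowest values of the arrays were 3.28 to 3.51.

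Genes that lie side by side can change together where a chromosome segment is gained or lost, so each member was set against the mean of its 20 nearest measured genes on each side. None of the 10 members was called (two-sided permutation test, adjusted over 18134 genes), against 1.37% of all genes. The median r over all genes was 0.23. Hsd17b12 on chromosome 2 had the highest r, 0.50 (permutation p = 0.0316, adjusted p = 0.213). Lmo1 on chromosome 7 had the lowest, -0.56 (permutation p = 0.0169, adjusted p = 0.166), which was -0.10 without mad554 and mad553.

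Camta1, Chd5, Casz1 and Arid1a all lie on chromosome 4, the first pair close enough to be among each other's neighbours. Their r with their neighbours was -0.50, -0.26, -0.16 and -0.18 (permutation p = 0.0435, 0.325, 0.540 and 0.498). Bard1 and Dusp12 on chromosome 1 had -0.08 and -0.05, Hace1 on chromosome 10 -0.34 and Nf1 on chromosome 11 0.01. Some of these values moved with the level of the arrays. The array of mad554 had the highest median and the highest neighbour mean of 6 members, and centring the arrays, which shifted them by -0.07 to 0.16 log2 units, turned Hsd17b12 to -0.16, Hace1 to 0.51, Casz1 to 0.14, Bard1 to 0.32 and Nf1 to -0.11. Lmo1 (-0.58) and Chd5 (-0.24) changed little, Camta1 went to -0.12 and Arid1a to -0.34. Without mad554, Lmo1 had r = -0.37, and 45 genes in place of 248 were called over the array.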

How the data were processed

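Values were log2 expression values per probe set, deposited by the authors, and were used with no further normalization. Per the labels they were made with RMA and Partek 6.4. The study's results section also names RMA for these arrays, while its methods section names MAS5 signals. Of 45101 probe sets, 64 were array controls, 34945 carried 1 symbol in the platform annotation, 932 several, and 9160 were unnamed here. The study describes 18 tumors, and 17 arrays were analysed here.

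All tumors form 1 group. Every gene was fitted on the log2 value of a member, or on a list mean, with limma 3.58.1 (lmFit and eBayes, R 4.3.3), adjusted by Benjamini-Hochberg over all genes at 0.05, with a list's own genes left out of its fit. Correlations named had 100000 permutations of the tumors (two-sided, seed 1), with Python 3.11.15 and NumPy 2.4.6. The members and lists were chosen with earlier results of these data known. Genes named were the members, the 3 of highest r per member with a mean at or above the median of all genes, called list genes or else the highest and lowest, and extreme pairs. Others were named after their values were seen. The fits were tested on simulated data. Alternatives covered probe sets, centring, dim genes, ranks, a principal component and single tumors. One list of genes is not reported here.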

Additional observations from a re-analysis of the deposited data

How the results depend on the processing

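No paired analysis was possible because all 17 arrays belong to the same group. The count of members in the highest quartile in every tumor was 3, and it was 1 when every probe set had to qualify and 5 with limits from all probe sets. The count of relations with marker lists was 1, and it was 0 without probe sets ending in _s_at, _x_at or _a_at. Without mad549, mad550 and mad553 the proliferation list called 0 genes over the array, and the count was 0. It was between 0 and 1 when each tumor was left out. With ranks it was 0, but that fit called 0 genes for every member and list and so says nothing on any of them. The count of 1 was that of another relation under 2 alternatives. Without mad548 it was Chd5 with the sympathetic list (r = 0.78, adjusted p in limma = 0.034). With the mean of all probe sets it was Hace1 with the endothelial list (r = -0.86, adjusted p in limma = 0.012). With 1 probe set per gene, Hace1 had r = -0.38 with that list (permutation p = 0.138). The dimmer Hace1 probe set alone had r = -0.68 with endothelial markers. The count of partner genes was 2, and it was 0 with the mean of all probe sets. No pair of members and no member with its neighbours was called under any other alternative run.

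The r of Dusp12 with Camta1 was 0.52, and it turned to -0.23 without probe sets ending in _s_at, _x_at or _a_at. The r of Dusp12 with the proliferation list was 0.78, and in its other probe sets, an alternative chosen after seeing the data, it was 0.21 and -0.023. Genes called with Chd5 were 238, and they were 23 without mad563, 181 with centred arrays, 364 among genes at or above the median of all genes, and 101 to 321 when another tumor was left out. Genes called with Dusp12 were 2, and they were 216 with centred arrays, 41 without mad563, and 0 both without probe sets ending in _s_at, _x_at or _a_at and without mad549, mad550 and mad553. Genes called with Arid1a were 7, and they were 42 with the mean of all probe sets and 1 without mad549, mad550 and mad553. Genes called with Hace1 were 0, and they were 26 with the mean of all probe sets. The cause of these changes was not tested. Signal over background was not known per probe. Values of dim probe sets such as those of Casz1, Bard1, Lin28b, Cpz and Ajap1 carry less information on differences between tumors.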
